A study of Mus musculus with 16 samples.

Results

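Pyruvate dehydrogenase kinases and phosphatases were followed in the myocardium of mice with a mutant circadian clock and of wild-type mice on a high-fat diet or standard chow. The set holds 6 genes of 22180 measured, chosen by name with earlier results of these data known. They are the 4 kinase genes Pdk1, Pdk2, Pdk3 and Pdk4, and the 2 genes of the phosphatase catalytic subunits, Pdp1 and Pdp2. All 6 were measured, by the 7 probe sets of the array whose only listed gene symbol is a member. Pdk1 has 2 probe sets and its value is their mean.

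RNA from 16 C57Bl/6J mice, 1 Affymetrix array per mouse, came from 4 groups of 4: Clock HFD, Clock SC, WT HFD and WT SC. Clock mice are labelled transgenic and homozygous for the delta 19 allele of Clock, a germline allele that all their cells carry and not the heart alone, and WT mice are wild type. HFD is the high-fat diet and SC the standard chow, each eaten for 24 weeks. All mice were 32 weeks old and were sampled 7 hours after lights on (ZT07), so the values describe 1 time of day. The labels count the arrays of a group as biological replicates.

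The pyruvate dehydrogenase complex in the mitochondrial matrix turns pyruvate into acetyl-CoA and so links glycolysis to the citric acid cycle. The kinases phosphorylate its E1 alpha subunit and switch the complex off, and the phosphatases remove the phosphate and switch it back on. In heart muscle this switch sets how much glucose carbon is burned beside fatty acids. PDK4 is known to be induced by fasting and by fatty acids through PPAR, FOXO and glucocorticoid receptor signalling, PDK1 by hypoxia through HIF1, and PDP1 is the calcium-sensitive phosphatase of muscle. CLOCK with BMAL1 (gene Arntl) activates transcription at the E-box CACGTG, and the delta 19 protein activates it poorly.

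Each value below is a difference from the median of that probe set over the 16 arrays, as the authors deposited it. It is read as log2 with a positive sign for higher expression, which was assumed, and the fold and percent changes rest on this. A value of 0 is the middle of the 16 hearts and not absence of the transcript. Levels of different genes cannot be compared on this scale. A gene is called where its adjusted p is under 0.05 (limma, moderated test with Benjamini-Hochberg adjustment over all 22180 genes), and an error after a difference is the standard error (SE) of that fit.

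Promoter windows of 300 bases, 250 before the annotated transcription start and 50 after it, were read from RefSeq (GRCm38.p6) for 5 of the 6 genes. Pdp1 was not among them. These 5 genes had 7 windows. Pdk1 and Pdk2 each had a second window (chr2:71874654-71874953 and chr11:95040826-95041125), and neither held any motif searched below. The Pdp2 window and 1 Pdk2 window are shown because they were the only member windows with an E-box, the element that CLOCK and BMAL1 bind. A Pdk1 window is shown because Pdk1 is the known hypoxia target among the genes called below, with the hypoxia core GCGTG marked in it. The capitals mark the E-box in the first 2 and GCGTG in the third. The windows are chr8:104591222-104591521 on the plus strand for Pdp2, chr11:95041322-95041621 on the minus strand for Pdk2 and chr2:71872974-71873273 on the plus strand for Pdk1, each written 5′ to 3′ along its gene.
Pdp2: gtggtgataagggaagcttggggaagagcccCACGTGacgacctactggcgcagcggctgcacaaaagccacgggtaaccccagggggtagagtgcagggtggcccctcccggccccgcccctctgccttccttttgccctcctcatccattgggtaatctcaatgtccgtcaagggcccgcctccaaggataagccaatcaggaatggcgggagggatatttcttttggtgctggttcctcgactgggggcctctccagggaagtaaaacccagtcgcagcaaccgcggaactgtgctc
Pdk2: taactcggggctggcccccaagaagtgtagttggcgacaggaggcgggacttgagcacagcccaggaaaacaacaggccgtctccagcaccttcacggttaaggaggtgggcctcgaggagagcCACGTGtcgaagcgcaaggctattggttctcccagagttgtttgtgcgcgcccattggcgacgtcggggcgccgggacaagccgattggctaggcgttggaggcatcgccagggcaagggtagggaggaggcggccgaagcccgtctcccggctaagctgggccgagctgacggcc
Pdk1: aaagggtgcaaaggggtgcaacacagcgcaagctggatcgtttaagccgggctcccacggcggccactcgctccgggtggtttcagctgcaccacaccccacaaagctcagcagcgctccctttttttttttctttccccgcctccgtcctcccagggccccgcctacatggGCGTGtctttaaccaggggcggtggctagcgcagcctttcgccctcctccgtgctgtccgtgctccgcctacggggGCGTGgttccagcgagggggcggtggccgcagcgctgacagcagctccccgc

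The E-box starts 219 bases upstream of the Pdp2 start and 126 bases upstream of the Pdk2 start. Of all 32851 windows of this length, 7.15% hold CACGTG on either strand. In the Pdk1 window shown, GCGTG starts 78 and 2 bases upstream of the start, and the Pdk4 window holds it 71 bases upstream. The Pdk3 window holds 3 copies, 163, 104 and 67 bases upstream, the last on the other strand. The motif was present in 32.4% of all windows. The other hypoxia core, ACGTG, lies inside each E-box and was also found in the Pdk3 window, against 19.6% of all windows. The letters CACGTT (E-prime box), TTATGTAA (D-box), AGGTCA (nuclear receptor half-site), AGGTCANAGGTCA (direct repeat) and GTAAACA (FOXO), and the glucocorticoid receptor palindrome, were not in these windows of the 5 genes. A match describes letters and is no measured binding site. Of the 2 genes with an E-box, Pdp2 was lower in Clock hearts and Pdk2 was not called. Among the genes with a window but no E-box, Pdk1 was lower in Clock hearts, and Pdk3 and Pdk4 were not called between genotypes. Pdp1, which was lower as well, had no window.

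Both phosphatases and 1 kinase were lower in Clock hearts, and another kinase was higher on HFD. Averaged over both diets, Pdp1, Pdp2 and Pdk1 fell by 17.8%, 15.2% and 12.0% in Clock hearts relative to WT hearts. Averaged over both genotypes, Pdk4 was 1.47-fold higher on HFD than on SC. Thus 3 of 6 members were called between genotypes, where 3.88% of all genes were called and 1.44% were called lower. Between diets 1 of 6 was called, where 1.54% were called and 0.812% were called higher. The members were chosen with earlier results of these data known, so these shares describe the set and do not test it. The median difference of the 6 members was -0.095 between genotypes and 0.068 between diets, against -0.0014 and -0.0015 over all genes.

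**Figure D1:**
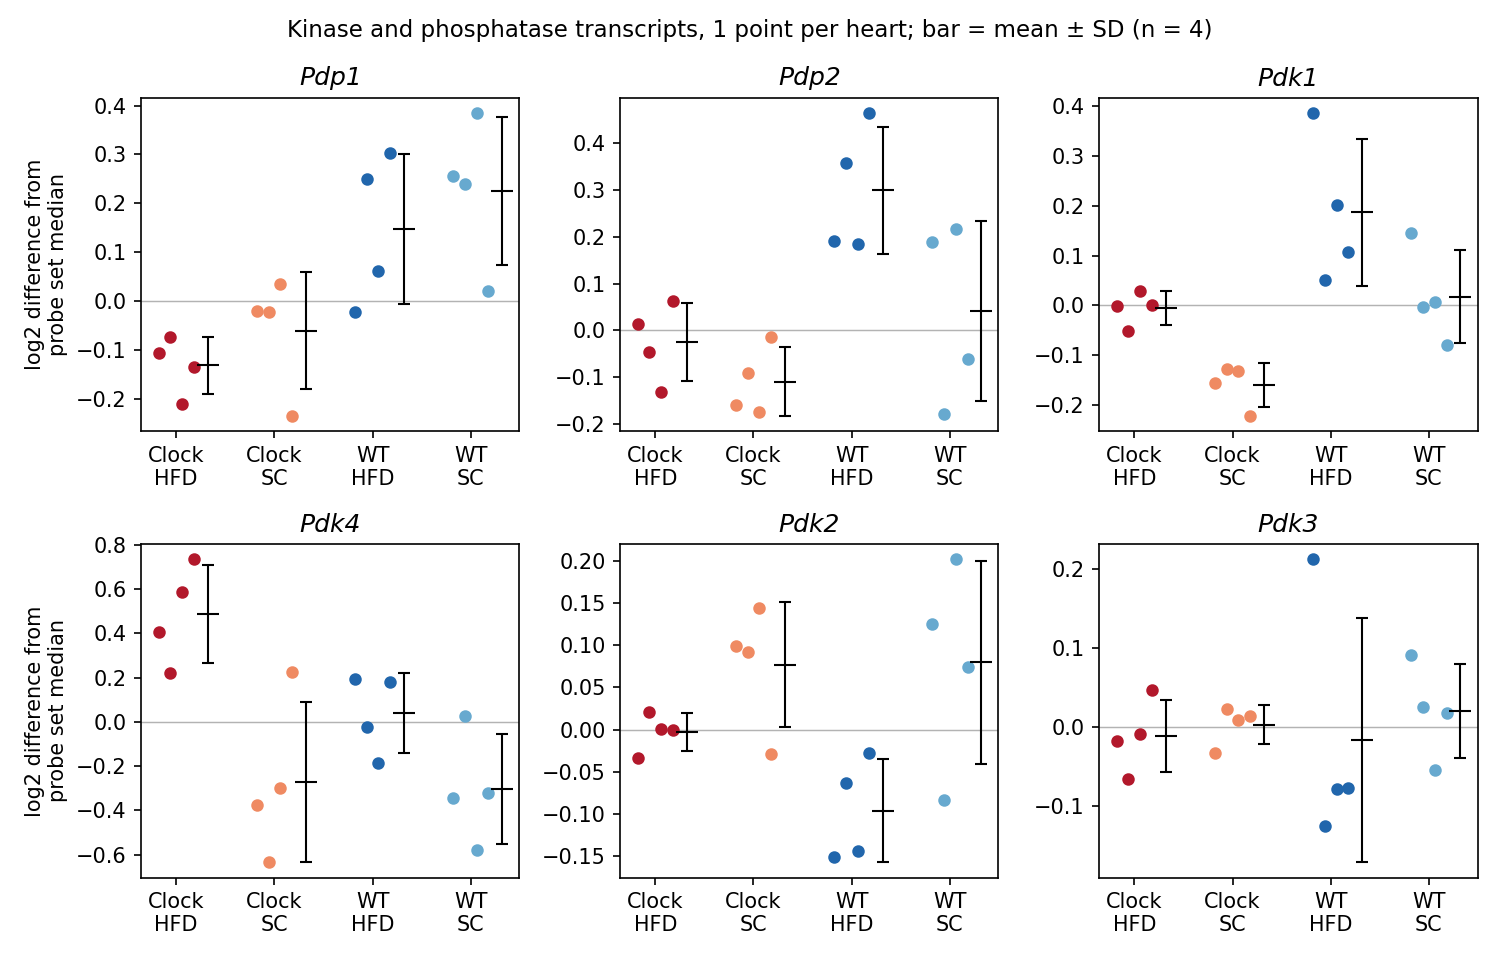
Log2 difference from the probe set median (y axis, own scale in each panel) for the 6 genes in the 4 groups, with 1 point per heart and a bar for the mean ± SD (n = 4). On each diet the Clock mean of Pdp1, Pdp2 and Pdk1 lies below the WT mean, with overlapping hearts on SC for Pdp1 and Pdp2. Pdk4 reaches 0.73 in Clock HFD hearts.

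Pdp1 encodes the catalytic subunit of the calcium-stimulated phosphatase (gene at chr4:11958183-11966450). It measured -0.11, -0.074, -0.21 and -0.14 in Clock HFD hearts, against -0.022, 0.25, 0.062 and 0.30 in WT HFD hearts. On chow it measured -0.020, -0.023, 0.035 and -0.24 in Clock SC hearts, against 0.26, 0.24, 0.38 and 0.020 in WT SC hearts. On HFD every Clock heart was below every WT heart, whereas on SC 1 Clock heart, at 0.035, was above the lowest WT heart. The difference was almost the same on both diets, -0.28 ± 0.08 on HFD (adjusted p = 0.114) and -0.29 ± 0.08 on SC (adjusted p = 0.184), and neither was called alone. Their average was -0.28 ± 0.06, with a 95% interval of -0.41 to -0.16 and an adjusted p of 0.0109. An exact permutation test of the average, which exchanged genotype labels within each diet (4900 splits, two-sided), gave p = 0.000816. This test was added after the values were seen, and its p, here and below, is not adjusted for the number of genes. The diet difference of Pdp1 was -0.074 ± 0.059 (adjusted p = 0.682), with an interval of -0.20 to 0.051. Pdp1 kept its call without any 1 of the 16 arrays, with adjusted p between 0.00381 and 0.0264.

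Pdp2 encodes the second phosphatase catalytic subunit, which is known from rat tissues as the insulin-responsive form (chr8:104591472-104599026). It measured 0.014, -0.045, -0.13 and 0.062 in Clock HFD hearts, against 0.19, 0.36, 0.19 and 0.46 in WT HFD hearts. On chow it measured -0.16, -0.091, -0.17 and -0.014 in Clock SC hearts, against 0.19, -0.18, 0.22 and -0.060 in WT SC hearts. The HFD groups did not overlap, whereas 2 of the 4 WT SC hearts lay within the Clock SC range or below it. The difference was -0.32 ± 0.09 on HFD (adjusted p = 0.0659) and -0.15 ± 0.09 on SC (adjusted p = 0.621), and the difference between them was not called (interaction -0.17 ± 0.12, adjusted p = 0.982). Without WT SC replicate 3 the SC difference was -0.093 and without WT SC replicate 2 it was -0.23, the ends of its range without 1 array, and neither was called. Without WT SC replicates 2 and 4 together it was -0.31 (adjusted p = 0.193). The average was -0.24 ± 0.06 (interval -0.37 to -0.11, adjusted p = 0.0353, exact permutation p = 0.00531).

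The call of Pdp2 lay close to the threshold. It was lost without any 1 of 10 of the 16 arrays, with adjusted p between 0.0519 and 0.0752: Clock HFD replicates 1, 2 and 3, Clock SC replicates 1, 2 and 3, WT HFD replicates 2 and 4, and WT SC replicates 1 and 3. The average in these 10 fits lay between -0.24 and -0.21. It was also lost with a fitted trend of variance and robust moderation (adjusted p = 0.0559). Between diets Pdp2 was 0.17 ± 0.06 higher on HFD on average (adjusted p = 0.195), a difference of 0.085 in Clock hearts and 0.26 in WT hearts that was not called.

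Pdk1, the kinase known as a target of HIF1 (chr2:71873215-71903858), was the one kinase that was lower in Clock hearts. It measured -0.00047, -0.051, 0.030 and 0.0012 in Clock HFD hearts, against 0.39, 0.051, 0.20 and 0.11 in WT HFD hearts. On chow it measured -0.16, -0.13, -0.13 and -0.22 in Clock SC hearts, against 0.15, -0.0023, 0.0060 and -0.080 in WT SC hearts. By the mean of its 2 probe sets, Clock and WT hearts did not overlap on either diet. The 4 Clock HFD hearts were also all above the 4 Clock SC hearts. By the second probe set alone, Clock and WT hearts overlapped on both diets. There WT HFD replicate 2 (-0.086) lay below all Clock HFD hearts, and WT SC replicate 4 (-0.15) lay within the Clock SC range. The genotype difference was -0.19 ± 0.06 on HFD (adjusted p = 0.167) and -0.18 ± 0.06 on SC (adjusted p = 0.314). Averaged, it was -0.18 ± 0.05 (interval -0.28 to -0.089, adjusted p = 0.0290). The exact permutation p of the average, 0.000408, is the smallest that the 4900 splits can give. It is unadjusted and rests on the mean of the 2 probe sets.

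The diet difference of Pdk1 ran the other way and was not called: 0.16 ± 0.05 on average (adjusted p = 0.0872), 0.15 in Clock hearts and 0.17 in WT hearts. The 2 probe sets of Pdk1 gave different calls. The first alone gave a genotype difference of -0.22 (adjusted p = 0.0157) and a diet difference of 0.20 (adjusted p = 0.0454), both called, and the second alone -0.15 (adjusted p = 0.292) and 0.12 (adjusted p = 0.4998), neither called. The genotype call was also lost without any 1 of 6 of the 16 arrays (Clock HFD replicates 1, 2 and 4, Clock SC replicate 1, WT HFD replicate 3 and WT SC replicate 1), with adjusted p between 0.0502 and 0.0637.

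Pdk4 encodes the kinase induced by fatty acids (chr6:5483351-5496278). It measured 0.41, 0.22, 0.59 and 0.73 in Clock HFD hearts, against -0.38, -0.64, -0.30 and 0.22 in Clock SC hearts. In wild types it measured 0.19, -0.025, -0.19 and 0.18 in WT HFD hearts, against -0.34, 0.025, -0.58 and -0.32 in WT SC hearts. Within each genotype 1 SC heart reached into the HFD range: Clock SC replicate 4 (0.22) and WT SC replicate 2 (0.025). The Clock HFD hearts were all above the WT HFD hearts. The average diet difference was 0.55 ± 0.11 (interval 0.31 to 0.80, adjusted p = 0.0244, exact permutation p = 0.00286 with diet labels exchanged within genotype).

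By genotype, the diet difference of Pdk4 was 0.76 ± 0.16 in Clock hearts (1.69-fold, adjusted p = 0.0940) and 0.35 ± 0.16 in WT hearts (1.27-fold, adjusted p = 0.466). The difference between these was 0.41 ± 0.23 (interval -0.074 to 0.90, adjusted p = 0.982 in limma), so the data do not show that Pdk4 responded more to the diet in Clock hearts. No gene of the 22180 passed the adjusted threshold in that interaction test in limma, and 5.06% had an unadjusted p under 0.05, none of the members among them. The genotype difference was 0.45 ± 0.16 on HFD (adjusted p = 0.214) and 0.034 ± 0.163 on SC (adjusted p = 0.977).

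Clock SC replicate 4 stood apart from its group on the whole array: its mean correlation with the other 3 Clock SC arrays was 0.0051, against 0.082 or more for every other array with its own group. It was also the Clock SC heart with the highest Pdk4 and the lowest Pdk2, Pdp1 and Pdk1. Without it the Pdk4 diet difference was 0.64 on average (adjusted p = 0.00540) and 0.92 in Clock hearts, which was then called (adjusted p = 0.0293). The Pdk4 interaction in that fit was 0.58 and was not called (limma, unadjusted p = 0.00906, adjusted p = 0.791). Without this array the genotype averages were -0.25 for Pdp1 (adjusted p = 0.0181), -0.25 for Pdp2 (adjusted p = 0.0310) and -0.17 for Pdk1 (adjusted p = 0.0493). The average diet call of Pdk4 was lost without Clock HFD replicate 3 (adjusted p = 0.0514) or replicate 4 (adjusted p = 0.0545).

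**Figure D2:**
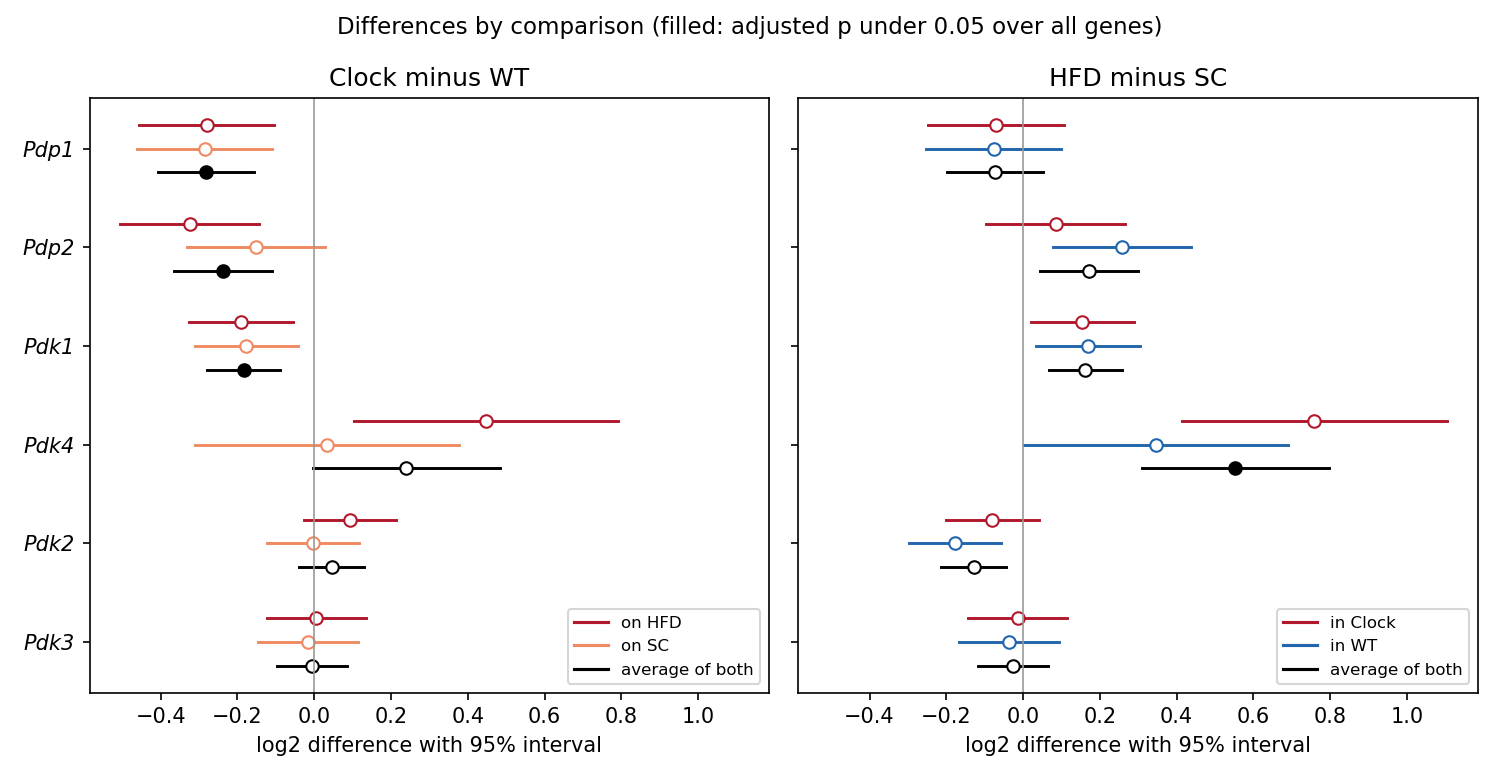
Log2 differences with 95% intervals from the limma fit for the 6 genes, Clock minus WT on the left and HFD minus SC on the right, in single groups (colours) and averaged (black). A filled point passed the adjusted threshold, which only the genotype averages of Pdp1, Pdp2 and Pdk1 and the diet average of Pdk4 did.

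Pdk2, the most widely expressed kinase of the family (chr11:95026258-95041371), was not called in any comparison. It measured -0.034, 0.021, 0.00068 and -0.00068 in Clock HFD hearts, against 0.10, 0.093, 0.14 and -0.029 in Clock SC hearts. In wild types it measured -0.15, -0.063, -0.14 and -0.027 in WT HFD hearts, against 0.13, -0.083, 0.20 and 0.075 in WT SC hearts. In each genotype 3 of 4 SC hearts lay above all HFD hearts. The average diet difference was -0.13 ± 0.04 (interval -0.21 to -0.043, adjusted p = 0.135), and the average genotype difference was 0.045 ± 0.040 (interval -0.040 to 0.13, adjusted p = 0.653). The diet difference was called only without WT SC replicate 2 (adjusted p = 0.0442) and with the cardiomyocyte covariate described below (adjusted p = 0.0251).

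Pdk3 (chrX:93764616-93832150) is a kinase gene on the X chromosome and was not called in any comparison. It ran from -0.065 to 0.047 in Clock HFD hearts and from -0.033 to 0.023 in Clock SC hearts. It ran from -0.13 to 0.21 in WT HFD hearts and from -0.055 to 0.091 in WT SC hearts, so all groups overlapped. The 95% interval of its average genotype difference was -0.097 to 0.086 and that of its average diet difference -0.12 to 0.066.

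No member was called in any of the 4 single comparisons, in which 1.9% of genes were called for Clock against WT on HFD, 0.491% on SC, 0.352% for HFD against SC in WT hearts and 0.0902% in Clock hearts. Counted by separation instead, 4 of the 6 members did not overlap between Clock and WT hearts on HFD (Pdp1, Pdp2 and Pdk1 below, Pdk4 above), where 8.89% of all genes did not overlap. On SC this held for 1 member (Pdk1), against 4.95% of genes. Pdk1 is counted by the mean of its probe sets, and by the second alone its genotypes overlapped on both diets. Between HFD and SC it held for 1 member in Clock hearts (Pdk1, above) and for 0 in WT hearts, against 5.31% and 5.3% of genes. These counts, too, describe a set chosen with earlier results known and are no test of it.

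How the members varied from heart to heart within groups was read after subtracting each group's mean. These correlations describe the 16 arrays, in which all genes of a heart share 1 RNA sample and 1 hybridisation, and carry no test. Among the 15 pairs of members, r ran from -0.59 (Pdk2 with Pdk4) to 0.81 (Pdk1 with Pdk3). The r of Pdk1 with Pdk3 was 0.50 without the 2 hearts farthest from the median of Pdk3, and that of Pdk2 with Pdk4 was -0.20 without the 2 farthest from the median of Pdk4. Pdk2 and Pdp1 varied together (r = 0.63, Spearman's rho = 0.85).

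The genes nearest to Pdp1 on this within-group measure, out of all genes, were Pdpr and Pdhb. Pdpr encodes the regulatory subunit of the same phosphatase and Pdhb the E1 beta subunit of the complex. Both are named here after their values were seen. The nearest gene was Kdm1b for Pdk2 (r = 0.93), H2-M3 for Pdk4 (0.91) and Olfr1154 for Pdk1 (0.89). It was Rb1 for Pdk3 (0.88) and Bcl7b for Pdp2 (0.87), so a high r with the nearest gene was not particular to Pdp1. Pearson's r of Pdp1 with Pdpr was 0.95 and Spearman's rho 0.93 (16 arrays), and r was 0.92 without the 2 hearts farthest from the Pdpr median. With Pdhb, r was 0.91 and rho 0.89, and 0.88 without the 2 farthest. The kinase gene Pdk2 varied with both as well. Its r was 0.71 with Pdpr (rho 0.89) and 0.78 with Pdhb (rho 0.91). Without the 2 farthest hearts its r was 0.61 and 0.80. In each of the 4 groups 1 heart was lowest in all 3 of Pdp1, Pdpr and Pdhb. These were Clock HFD replicate 3, Clock SC replicate 4, WT HFD replicate 1 and WT SC replicate 4.

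Between genotypes, Pdpr and Pdhb had differences of the opposite sign to Pdp1, without a call. Pdpr measured 0.11, 0.20, 0.048 and 0.14 in Clock HFD hearts, against -0.19, 0.11, -0.039 and 0.070 in WT HFD hearts. On chow it measured -0.014, 0.014, 0.12 and -0.23 in Clock SC hearts, against -0.19, -0.27, -0.080 and -0.40 in WT SC hearts. Its average genotype difference was 0.17 ± 0.06 (adjusted p = 0.120), and that of Pdhb was 0.14 ± 0.04 (adjusted p = 0.0728).

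**Figure D3:**
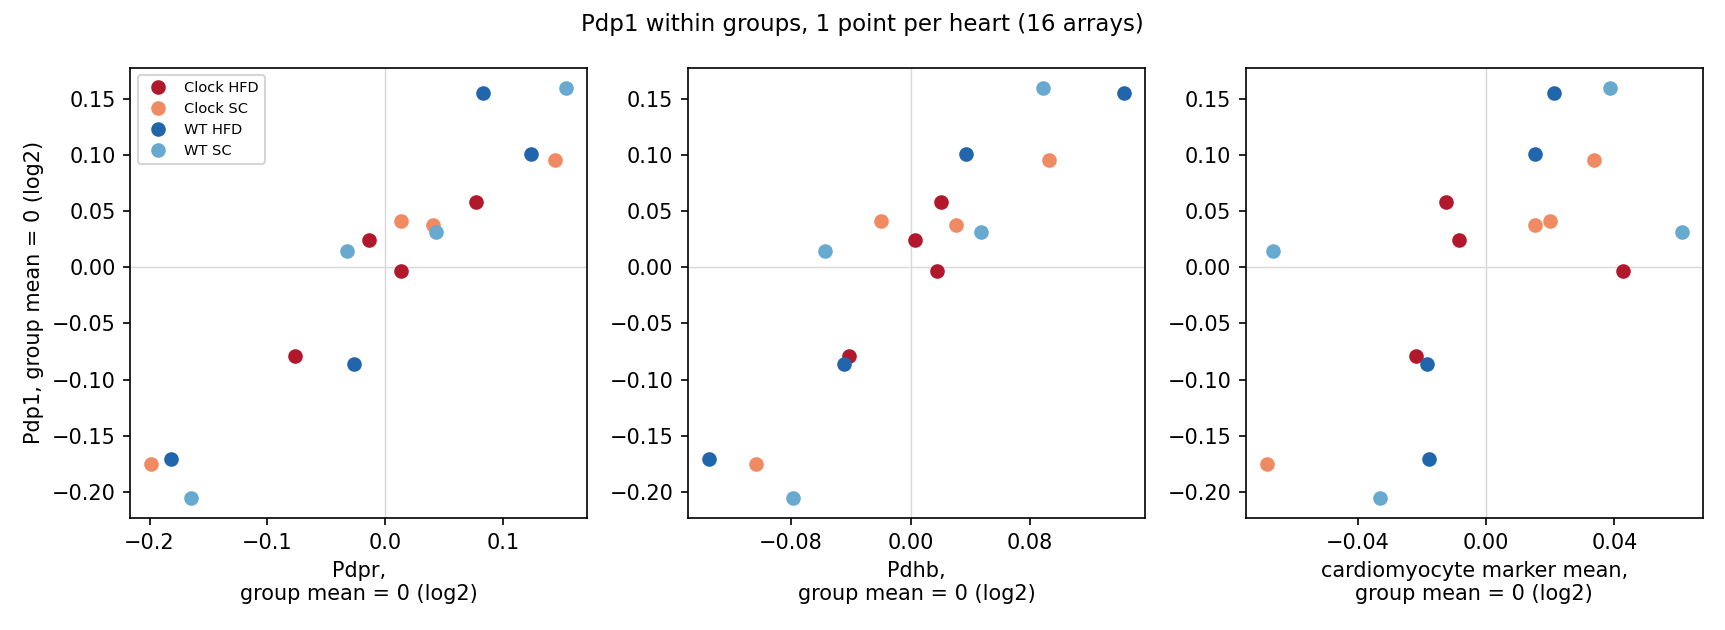
Pdp1 (y axis) against Pdpr, Pdhb and the mean of 9 cardiomyocyte markers (x axes), each as log2 with its group's mean set to 0, with 1 point per heart for the 16 hearts. The points rise together with Pdpr (r = 0.95) and Pdhb (r = 0.91) and less tightly with the cardiomyocyte marker mean (r = 0.64).

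Over the 16 arrays without centring, the genes most like each member by Pearson's r were as follows, as a description. For Pdk4 they were Grk5 (0.88), Med8 (0.87) and Lipe (0.86), the last encoding hormone-sensitive lipase. For Pdk1 they were Eci2 (0.90), which encodes an enoyl-CoA isomerase, 4921504A21Rik (0.88) and Ajm1 (0.86). For Pdk2 they were Ptk2b (0.93), Atp5g2 (0.91), a subunit c gene of ATP synthase, and Foxred1 (0.87). For Pdp1 they were Perp (0.92), D830024N08Rik (0.91) and Atp8a1 (0.90), for Pdp2 Apex2 (0.89), As3mt (0.87) and Ifrd2 (0.86), and for Pdk3 Zmat2 (0.83), Prr13 (0.80) and Capn13 (0.78).

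Few genes of the complex itself passed. Of 11 genes of the pyruvate dehydrogenase complex and the related branched-chain complex, Pdhx, which encodes the E3-binding protein, rose in Clock hearts (0.26 ± 0.06 on average, adjusted p = 0.0266). Dbt, the E2 subunit of the branched-chain complex, fell (-0.18 ± 0.04, adjusted p = 0.0152), and the other 9 did not pass. The E1 alpha gene Pdha1, the target of the kinases, differed by 0.055 (adjusted p = 0.678) and the E2 gene Dlat by 0.12 (adjusted p = 0.163). The list's median was 0.12. Between diets 0 of the 11 passed, with a median of 0.018, and the closest were Bckdha (0.28, adjusted p = 0.105) and Pdpr (0.19, adjusted p = 0.131).

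Of 17 measured genes of pyruvate supply and its other fates, 1 rose in Clock hearts and 1 rose on HFD. Gpt2, the mitochondrial alanine aminotransferase that interconverts pyruvate and alanine, was higher in Clock hearts (0.29 ± 0.06, adjusted p = 0.00997). Me1, the cytosolic malic enzyme that makes pyruvate, was higher on HFD (0.34 ± 0.04 on average, adjusted p = 0.000675) and was also called in WT hearts alone (0.47, adjusted p = 0.00213). The medians of the list were 0.014 between genotypes and -0.0049 between diets.

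Among 18 nuclear regulators linked to Pdk4 and Pdk2, Ppara (0.24 ± 0.05, adjusted p = 0.0160) and Pparg (0.19 ± 0.05, adjusted p = 0.0452) rose in Clock hearts. They encode lipid-activated receptors, of which PPAR alpha is known to drive Pdk4. Between diets 0 of the 18 passed, and the smallest p-values belonged to Nr4a1 (-1.09, adjusted p = 0.0673) and Foxo3 (0.19, adjusted p = 0.0968).

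Of 26 measured PPAR targets other than Pdk4, 11 rose and 0 fell on HFD on average, with a list median of 0.22. The largest called differences were those of Acot1, an acyl-CoA thioesterase (0.44), Retsat, a retinol saturase (0.39), Cidea, a lipid droplet protein (0.33) and Acadvl, the very-long-chain acyl-CoA dehydrogenase (0.33). Single comparisons called 5 higher in WT hearts and 3 higher in Clock hearts, with list medians of 0.15 and 0.27. Between genotypes the list's median was -0.00096, and 2 fell in Clock hearts, Cpt1a (-0.35), a carnitine palmitoyltransferase, and Slc25a20 (-0.19), the carnitine carrier. The diet difference of Pdk4, 0.55, was larger than that of each of these 11 called targets.

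**Figure D4:**
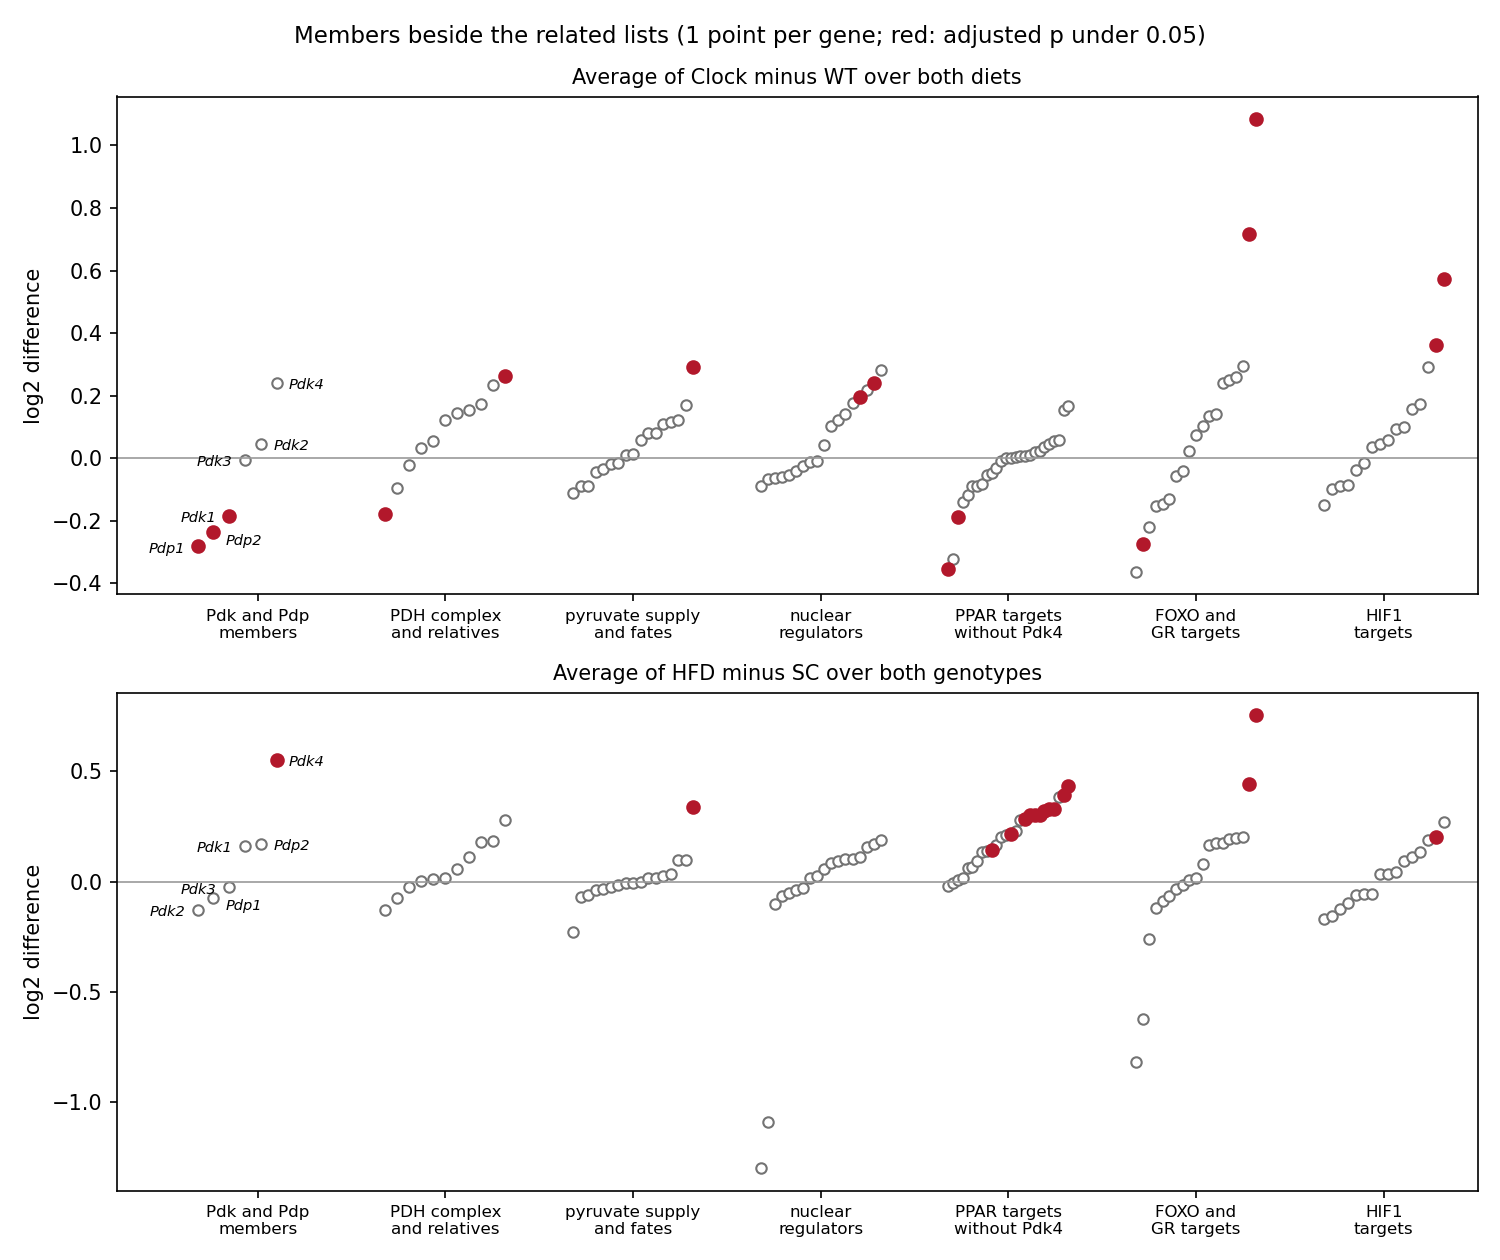
Log2 differences (y axis) of the 6 kinase and phosphatase genes and of the genes of 6 related lists, 1 point per gene, for the average of Clock minus WT (upper) and of HFD minus SC (lower). Red points passed the adjusted threshold, and in the lower panel Pdk4 (0.55) stands above the 11 called PPAR targets.

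Of 19 measured FOXO and glucocorticoid receptor targets, Zbtb16 (0.75) and Ddit4 (0.44), both induced by glucocorticoids, rose on HFD on average, and the list median was 0.018. Single diet comparisons called 1 gene of the list, Cdkn1a, the p21 cell cycle inhibitor, which was lower on HFD in WT hearts (-1.30, adjusted p = 0.0245). Between genotypes Cdkn1a (1.08) and Ddit4 (0.72) were higher in Clock hearts on average, and Txnip (-0.28), an inhibitor of glucose uptake, was lower. The Cdkn1a genotype difference was 1.76 on HFD (adjusted p = 0.000722) and was not called on SC. Of 16 measured HIF1 targets other than Pdk1, Adm (0.57), which encodes adrenomedullin, and Hk1 (0.36), a hexokinase, rose in Clock hearts, and 0 fell. The median of that list was 0.051, and Pdk1 itself fell (-0.18). On HFD Egln1 (0.20), a prolyl hydroxylase of HIF1, was the 1 gene of that list to pass.

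The genotype was visible in the clock genes. Of 19 measured core clock genes and E-box outputs, 12 fell and 3 rose in Clock hearts on average, Dbp by the most (-2.39), and Arntl was higher (1.32). Dbp measured 0.37 in WT SC replicate 4, against 1.71 to 2.45 in the other WT hearts and -0.62 to -0.37 in Clock hearts. The list mean of that heart was 0.057, against 0.24 to 0.48 in the other WT hearts. It was also the WT SC heart with the lowest Pdk1 (-0.080) and Pdp1 (0.020). The list median was -0.40 between genotypes. Between diets, Arntl fell (-0.84, adjusted p = 0.0296) and Wee1 rose (0.47, adjusted p = 0.0342) on HFD on average, and the list median was 0.13. Both were also called in WT hearts alone (-1.43, adjusted p = 0.0245, and 0.79, adjusted p = 0.0338), and 0 of the 19 in Clock hearts.

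In bulk tissue, fewer cells of a type and less RNA per cell cannot be told apart. Cell markers shifted between genotypes beside the members. Of 8 endothelial markers 4 rose in Clock hearts, and their mean per heart ran from -0.027 to 0.17 in Clock HFD, from 0.043 to 0.20 in Clock SC, from -0.28 to -0.18 in WT HFD and from -0.059 to 0.036 in WT SC hearts. Of 8 fibroblast markers 3 rose in Clock hearts, with ranges of -0.085 to 0.25, -0.0065 to 0.11, -0.17 to 0.13 and -0.27 to -0.038 in the same order of groups. Their part in the lower Pdp1, Pdp2 and Pdk1 was not tested.

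Of 9 cardiomyocyte markers 1 rose in Clock hearts, Ryr2, and the marker mean of the groups was 0.021 in Clock HFD, 0.0064 in Clock SC, -0.033 in WT HFD and -0.027 in WT SC hearts. Within groups this mean varied with Pdk2 (r = 0.83), Pdp1 (r = 0.64) and Pdp2 (r = 0.59). Without the 2 hearts farthest from the median of the marker mean, these were 0.67, 0.68 and 0.75. For Pdk4 r was -0.46, but 0.041 without those 2 hearts, on which it rested. With it as a covariate, a fit added after the values were seen, the genotype averages were -0.37 for Pdp1, -0.32 for Pdp2 and -0.21 for Pdk1, the last no longer called (adjusted p = 0.0557). Of 9 measured adipocyte markers, Cidea, which is also among the PPAR targets, and Lipe rose on HFD, and the list mean ran from -0.033 to 0.11 in Clock HFD, -0.070 to 0.028 in Clock SC, -0.050 to 0.090 in WT HFD and -0.11 to 0.033 in WT SC hearts. Over both genotypes the cardiomyocyte marker Ryr2 also rose on HFD (0.15, adjusted p = 0.0335), and the endothelial markers Kdr (-0.24, adjusted p = 0.0254) and Emcn (-0.21, adjusted p = 0.0298), 2 of 8, fell. With the cardiomyocyte covariate the diet average of Pdk4 was 0.57 (adjusted p = 0.0115). The part of the adipocyte and endothelial markers in it was not tested. Since the deposited values hold no levels, the presence of cardiac markers and the absence of others could not be read from them, and the 4 erythroid markers were not measured.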

How the data were processed

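Total RNA (500 ng per heart) was labelled and hybridised to 16 Affymetrix arrays, per the labels' protocols. The authors deposited log2 values for 34351 probe sets, each relative to its median over the 16 arrays (0 within 5e-07). Log base 2 and a positive sign for higher expression were assumed, since neither these nor the software, background correction and normalization are given in the sources used here. No signal level or background is left in such values, and the number of arrays limits the precision.

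The 23521 probe sets with exactly 1 listed gene symbol were averaged to 22180 genes. A further 1814 probe sets list more than 1 symbol and 9016 have no listed symbol, and none of these entered. Genes were compared with limma 3.58.1 (R 4.3.3; lmFit and eBayes, group means model, two-sided) in 7 comparisons. These were the 2 genotype differences (1 per diet), the 2 diet differences (1 per genotype), the average of each pair, and the interaction. Benjamini-Hochberg adjustment ran over all genes, with a threshold of 0.05. The fit was also run on simulated data with independent normal noise and a fixed shift in some genes. Such data meet the assumptions of the fit and do not test the calls made here. The smallest p of an exact permutation of 4 against 4 arrays (70 splits) is 0.0286.

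The members and all lists were chosen with earlier results of these data known. Named from a list were up to 4 genes past the threshold with the largest change, and otherwise the 2 with the smallest p. Other subunits of the complex (Pdha1, Pdhb, Dlat, Pdpr) were named after their values were seen. Most alike genes were the 3 with the highest Pearson r. Other settings were each Pdk1 probe set, the probe set of highest variance, eBayes with trend and robust, array weights, repeated quantile normalization, only the arrays compared, a replicate block, leaving out each array, leaving out WT SC replicates 2 and 4 together, and, added after the values were seen, a cardiomyocyte marker covariate and permutations of the averages. Figures were drawn with Python 3.11.15 and matplotlib 3.10.9.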

Additional observations from a re-analysis of the deposited data

Results flagged for a closer look

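Pdk3 in WT HFD replicate 1, at 0.21, lay far from the other 3 hearts of its group, which ran from -0.13 to -0.076. Of the 24 groups of 4 values tested (6 genes in 4 groups) it was the 1 whose gap exceeded Dixon's 95% critical value, and chance marks about 1 group in 20. The same heart also had the highest Pdk1 of all 16 hearts (0.39). Without it the Pdk3 genotype difference on HFD was 0.082, with no call.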

How the results depend on the processing

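The directions of the 4 called averages held under every setting run, and the call of Pdp1 held under all of them. Over all members and comparisons, 766 alternative values with an adjusted p kept direction and side of the threshold, 22 lost it, 10 passed it and 37 changed sign, all 37 of them for differences that were not called. Of the 36 exact permutation tests, whose p is unadjusted, 9 passed 0.05 where the adjusted p had not.

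For Pdp2 between genotypes (-0.24), the call was lost with trend and robust moderation (adjusted p = 0.0559) and with the replicate block (adjusted p = 0.0595). For Pdk1 between genotypes it was lost with the second probe set alone (-0.15, adjusted p = 0.292) and with the cardiomyocyte covariate (-0.21, adjusted p = 0.0557). Leaving out 1 array gave -0.32 to -0.25 for Pdp1, -0.27 to -0.21 for Pdp2, -0.21 to -0.15 for Pdk1 and 0.49 to 0.64 for the diet average of Pdk4. The cardiomyocyte covariate added calls for Pdp1 between genotypes on SC (-0.35, adjusted p = 0.0442) and HFD (-0.38, adjusted p = 0.0224) and for Pdp2 on HFD (-0.42, adjusted p = 0.0176). Array weights added those of Pdp2 on HFD (adjusted p = 0.0369) and of the Pdk4 diet difference in Clock hearts (0.79, adjusted p = 0.0412). The causes were not tested.

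The count of genes called for Clock against WT on SC (109) was 59 with trend and robust moderation, 38 with only the arrays compared, 49 without WT SC replicates 2 and 4 together, and 49 to 144 without 1 array. On HFD (422) it was 241 to 344 without 1 array. For HFD against SC in WT (78) it was 40 with trend, 15 with only the arrays compared, 41 with the replicate block, 11 without WT SC replicates 2 and 4, 158 with the covariate and 28 to 65 without 1 array. In Clock (20) these were 8 with trend, 53 with array weights, 43 with quantile normalization, 7 with only the arrays compared, 12 with the block and 6 to 14 without 1 array. The interaction (0) gave 2 with the covariate and 0 without any 1 array. The genotype average (861) gave 507 without WT SC replicates 2 and 4, 517 with the covariate and 648 to 1003 without 1 array, and the diet average (341) gave 141 without those replicates and 218 to 329 without 1 array. Fewer arrays or fewer residual degrees of freedom entered the fits without arrays, with only the arrays compared, with the block and with the covariate. The causes of the changed counts were not tested.

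Values near 0 changed sign. Clock against WT on SC became 0.0052 for Pdk2 and -0.0026 for Pdk4 with array weights, and 0.0017 for Pdk2 with quantile normalization. The interaction of Pdk1 became 0.017 with its first probe set or that of highest variance and 0.044 without WT SC replicates 2 and 4. That of Pdp1 became -0.0076 with array weights, -0.016 with quantile normalization and -0.035 with the covariate. The genotype average of Pdk2 became -0.022 with the covariate. Without 1 array, Clock against WT on SC ran from -0.057 to 0.038 for Pdk2, -0.041 to 0.0070 for Pdk3 and -0.13 to 0.15 for Pdk4, and on HFD from -0.031 to 0.082 for Pdk3. The Pdk3 diet difference in Clock hearts ran from -0.034 to 0.0035 and its genotype average from -0.024 to 0.033. Interactions ran from -0.060 to 0.052 for Pdk1, -0.014 to 0.099 for Pdk3 and -0.052 to 0.074 for Pdp1.

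Same-numbered replicates did not deviate together: 3 of 24 pairs correlated above 0.1, and 1 of 16 arrays correlated best with its own number. Signal over background could not be weighed, since the values hold no levels.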
